A study of Homo sapiens with 2 samples.

Results

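The genes described here are those of 5 families of splicing proteins, measured in BE(2)C cells, a line from a human neuroblastoma in which the MYCN gene is amplified. Members are the protein-coding genes whose platform symbol begins with PRPF, SNRP, SNRNP, SF3A, SF3B, SRSF, LSM, HNRNP or RBM followed by a digit or letter, with no hyphen. The letters matched 111 rows of the table. Of these, 7 rows were pseudogenes, 5 carried hyphenated antisense symbols, and 99 belonged to the 97 members, out of 14812 named genes in all. The members fell into core small nuclear ribonucleoprotein (snRNP) proteins with SNRP, SNRNP or LSM symbols (20 genes), PRPF proteins (10), SR proteins (10), hnRNP proteins (21) and RBM proteins (36). No named row carried an SF3A or SF3B symbol, so the SF3 class was not analysed here. Of the LSM letters, only LSM12 and LSMEM1 were found. LSMEM1 is a membrane protein that shares the letters and no splicing role. It was too dim for the main level filter given below, so the main medians and fold calls leave it out. It stays in the counts of members and of promoter windows, and in alternatives with a looser filter.

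Splicing removes introns from precursor messenger RNA. It is carried out by the spliceosome, which assembles on each intron from the U1, U2, U4, U5 and U6 snRNPs. Each snRNP holds a small RNA and proteins. Sm proteins form a ring around the RNA of most of them, and PRPF proteins include the scaffold and the joining proteins of the U4/U6·U5 particle (the tri-snRNP). SR proteins mostly favour the use of exons and hnRNP proteins often oppose it. RBM is a naming series for proteins with RNA recognition motifs, and only some of its members act in splicing. Cells driven by MYC proteins make much messenger RNA and have been described as depending on the core spliceosome.

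The series held 2 samples. The control culture received non-targeting siRNA and the other culture 1 siRNA against MYCN from another supplier, with the same lipid reagent. RNA was taken 36 hours later and hybridised to Affymetrix Human Gene 2.0 ST arrays, which read each transcript with a set of short probes (a probe set). Each arm was a single culture of 1 cell line on 1 array, so nothing below has a replicate or a p-value. The title of the control sample carries the word reanalysis and that of the other does not. What the word refers to is not stated, so whether both arrays were handled alike is not known. The number of arrays limits the precision. All values are log2 levels, and a difference is MYCN siRNA minus control. Fewer cells of a kind and less RNA per cell cannot be told apart in such bulk samples. MYCN expression was not analysed here.

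The filter kept genes, here called measured, for which the mean of the 2 levels reached 4.58, the mean of the array medians. That kept 86 of the 97 members and 9177 protein-coding genes in all. A gene was called lower or higher when the arrays differed by at least 1.5-fold (0.585 on the log2 scale). The spread between probe sets that read the same gene was an SD of 0.31 per probe set over 370 genes. It is the only spread in these data, and it leaves out the spread between cultures. In 23.2% of those genes the differences of the 2 probe sets compared were 0.5 or more apart. Of 13 adrenergic neuroblastoma markers, 11 were found and all 11 were measured, at levels from 6.47 (TH) to 11.0 (GATA2), with differences from −0.43 (ISL1) to 1.45 (DBH). Their log2 levels summed to 100.2 in the control and 102.4 with MYCN siRNA. Such a sum of log2 levels, here and for the marker sets that follow, is not a total abundance. The 5 Schwann and mesenchymal markers found summed to 27.8 and 28.8, with S100B at 1.02, VIM at 0.57, FN1 at 0.23, SOX10 at −0.28 and PRRX1 at −0.51. The 2 haematopoietic markers found summed to 11.3 and 13.0, and the 3 endothelial and epithelial ones to 14.7 and 14.2. CD14, a monocyte marker, was at 4.02 in both arrays, and CD68, a lysosomal protein of macrophages and other cells, had a difference of 1.74. Their part in the results below was not tested.

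Most splicing-family genes differed little between the arrays. Of the 86 measured members, 50 were lower and 36 higher with MYCN siRNA, and the median difference was −0.030, against 0.020 over all 9177 measured genes, of which 47.0% were lower. With each array centred on its own median the members' median was 0.020 and that of all genes 0.070. The median size of a difference, either way, was 0.17 in the members and 0.25 in all genes. Of the members, 64 (74.4%) lay within the probe-set SD, against 59.9% of all genes. Measured members had a median level of 8.28 and all measured genes 7.02. Among genes below a level of 7 the median size was 0.077 for 21 members and 0.24 for all genes. From 7 to 9 it was 0.19 for 38 members and 0.27 for all genes. From 9 upward it was 0.18 for 27 members and 0.21 for all genes.

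The fold calls were few. PRPF4, PRPF31 and RBM23 were at least 1.5-fold lower, which is 3 of 86 members (3.49%) against 5.56% of all measured genes. HNRNPA1L2 and HNRNPLL were at least 1.5-fold higher, which is 2 of 86 (2.33%) against 8.91%. Each of these calls rests on 1 probe set. At 2-fold, PRPF4 was the single member called lower, against 1.16% of all genes, and none was called higher, against 2.15%. The members' share of calls was therefore below the background in the higher direction and not above it in the lower one at 1.5-fold.

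**Figure D1:**
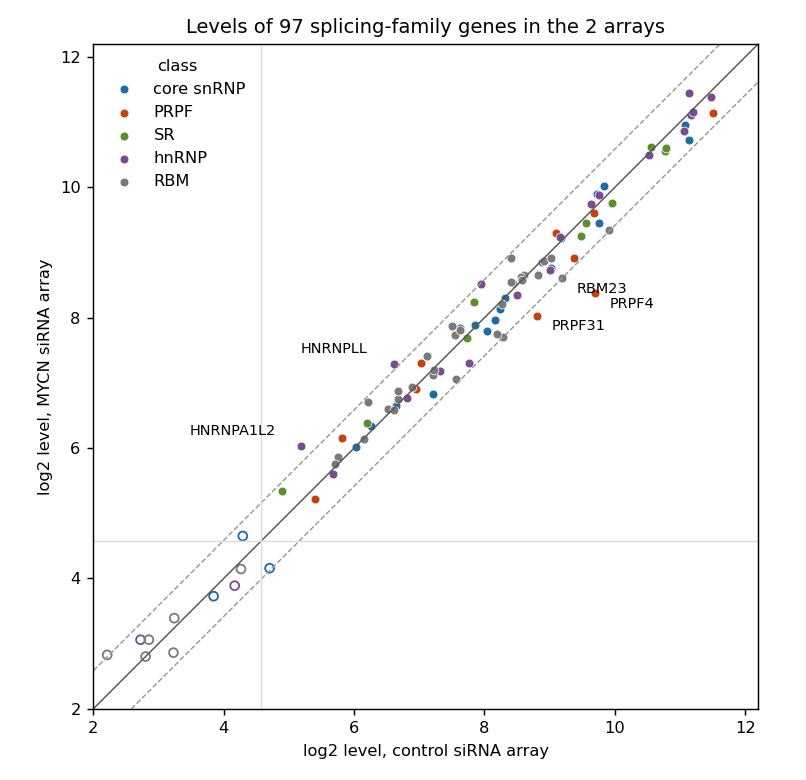
Log2 level of each of the 97 members in the control siRNA array (horizontal) and the MYCN siRNA array (vertical), 1 point a gene, coloured by class, with open points for the 11 genes below the filter. The solid line marks equal levels and the dashed lines 1.5-fold; grey lines mark the filter level of 4.58. PRPF4 lies furthest below the lower dashed line, and HNRNPA1L2 and HNRNPLL lie above the upper one.

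PRPF had the lowest median, −0.13 over 10 genes, with 7 lower. Of the 10, 2 were called lower (against 5.56% of all measured genes) and none was called higher (against 8.91%). SR proteins had a median of −0.076 over 10 genes, hnRNP proteins −0.041 over 19, core snRNP proteins −0.017 over 17 and RBM proteins 0.043 over 30. The medians of PRPF and SR stayed below 0 with median centring, quantile normalization and loess. Those of core snRNP (0.033 with centring), hnRNP (0.0087 with centring and 0.011 with quantile normalization) and RBM (−0.00048 with quantile normalization) changed sign. Median centring adds the same constant to every difference, so with it only medians close to 0 could cross. A kept sign therefore does not set PRPF and SR apart from the other classes. The median size of a difference was 0.31 in PRPF, 0.19 in SR, 0.16 in core snRNP, 0.13 in hnRNP and 0.11 in RBM, against 0.25 over all genes. Past the probe-set SD lay 5 of the 10 PRPF genes, 4 of them lower and 1 higher, where 17.6% of all genes were lower and 22.4% higher by that much. None of the 17 core snRNP and none of the 10 SR genes was called in either direction, against 5.56% of all genes lower and 8.91% higher. With so few genes these counts, those of PRPF included, do not set any class apart from all genes.

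**Figure D2:**
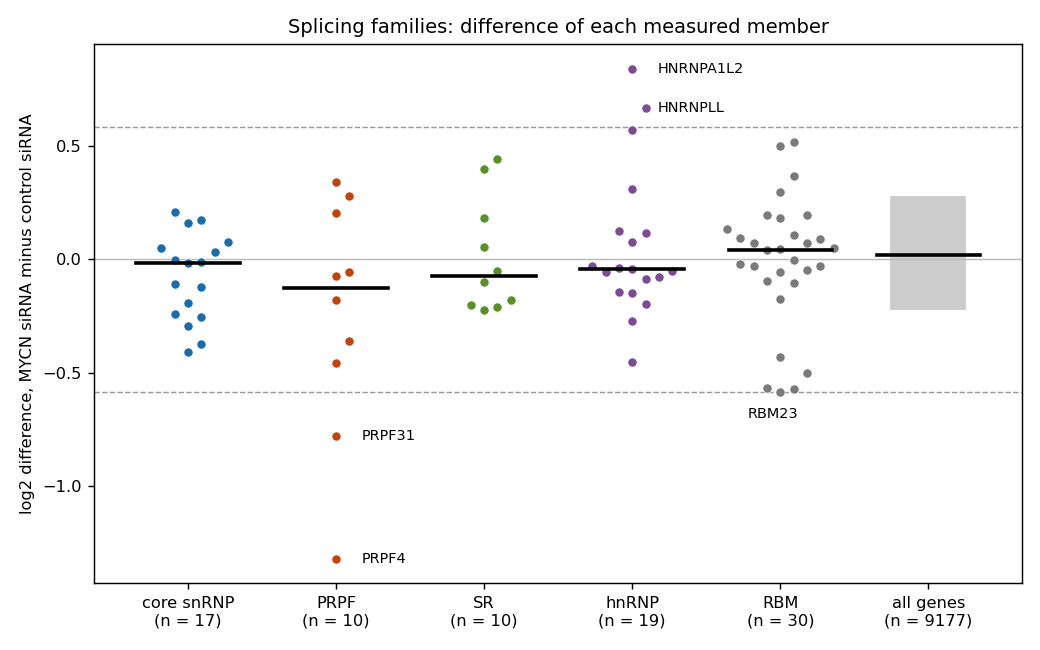
Log2 difference (MYCN siRNA minus control siRNA) of each measured member by class; bars are class medians, and the grey box spans the quartiles of all 9177 measured protein-coding genes (−0.22 to 0.28) with their median. Dashed lines mark 1.5-fold; the 5 genes past them are named.

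The U4/U6 and tri-snRNP proteins held both the lowest member of all and a higher one. PRPF4, a WD-repeat protein of the U4/U6 snRNP, went from 9.70 in the control to 8.38 with MYCN siRNA. The difference of −1.32 (2.50-fold lower) was the 29th lowest of the 9177 measured genes. PRPF31, which holds U4/U6 together with U5, went from 8.81 to 8.03 (−0.78, 1.72-fold lower). PRPF3, the direct partner of PRPF4 in the U4/U6 particle, went from 7.03 to 7.31 (0.28), on the other side of 0. PPIH, a cyclophilin of the same subcomplex that is outside the families, was at −0.14. SNRNP27, a tri-snRNP protein, was at 0.049 and PRPF38A, which joins with the tri-snRNP, at −0.074. Partners in 1 particle thus spanned 1.60 on the log2 scale, from PRPF4 to PRPF3.

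The 4 U5 proteins within the families split evenly. PRPF8, the scaffold at the catalytic centre, went from 11.5 to 11.1 (−0.36), and SNRNP40 was at −0.11. PRPF6, which bridges U5 and U4/U6, was at 0.20 and SNRNP200, the helicase that unwinds U4 from U6, at 0.18. Of the partners outside the families, EFTUD2, the U5 GTPase, went from 11.6 to 11.1 (−0.50) and USP39 from 8.34 to 7.80 (−0.54). Neither reached 1.5-fold.

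All 7 Sm ring proteins lay below the control in the values as deposited and after quantile normalization, whereas SNRPE was above 0 after loess, and SNRPE and SNRPD2 after median centring. SNRPB went from 11.1 to 10.7 (−0.41, 1.33-fold lower). SNRPD3 was at −0.25, SNRPD1 at −0.19 and SNRPD2 at −0.017. Only SNRPB lay past the probe-set SD among the 5 measured Sm genes. SNRPF, at 4.70 and 4.16, and SNRPG, at 3.84 and 3.73, were too dim to count as measured. SNRPE had 2 probe sets, 1 of them at 5.72 in both arrays and the other at 6.33 and 6.32. Identical values in the 2 arrays were seen in 1859 of 46255 rows, so this probe set gives no information on a difference.

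The 5 U1 proteins found were lower too, by little. SNRNP70, the U1 protein that binds the first stem of U1 RNA, was at −0.24, PRPF40B at −0.18, SNRPA at −0.12, PRPF39 at −0.056 and SNRPC at −0.012, which turned above 0 with median centring. All 5 lay within the probe-set SD. The 2 U2 proteins found differed in sign. SNRPA1 went from 7.21 to 6.83 (−0.38) and its binding partner SNRPB2 from 9.73 to 9.89 (0.16). The 3 proteins of the minor spliceosome, which removes a rare class of introns, were all slightly higher under the deposited scale and the other 3 scalings, with SNRNP48 at 0.21, SNRNP35 at 0.075 and SNRNP25 at 0.033, each within the probe-set SD. LSM12, an LSm-domain protein outside the spliceosome, was at −0.29.

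Among the remaining PRPF proteins, PRPF19, the ubiquitin ligase at the centre of a complex that activates the spliceosome, went from 9.38 to 8.92 (−0.46, 1.37-fold lower). PRPF18, a factor of the second catalytic step, went from 5.81 to 6.15 (0.34).

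**Figure D3:**
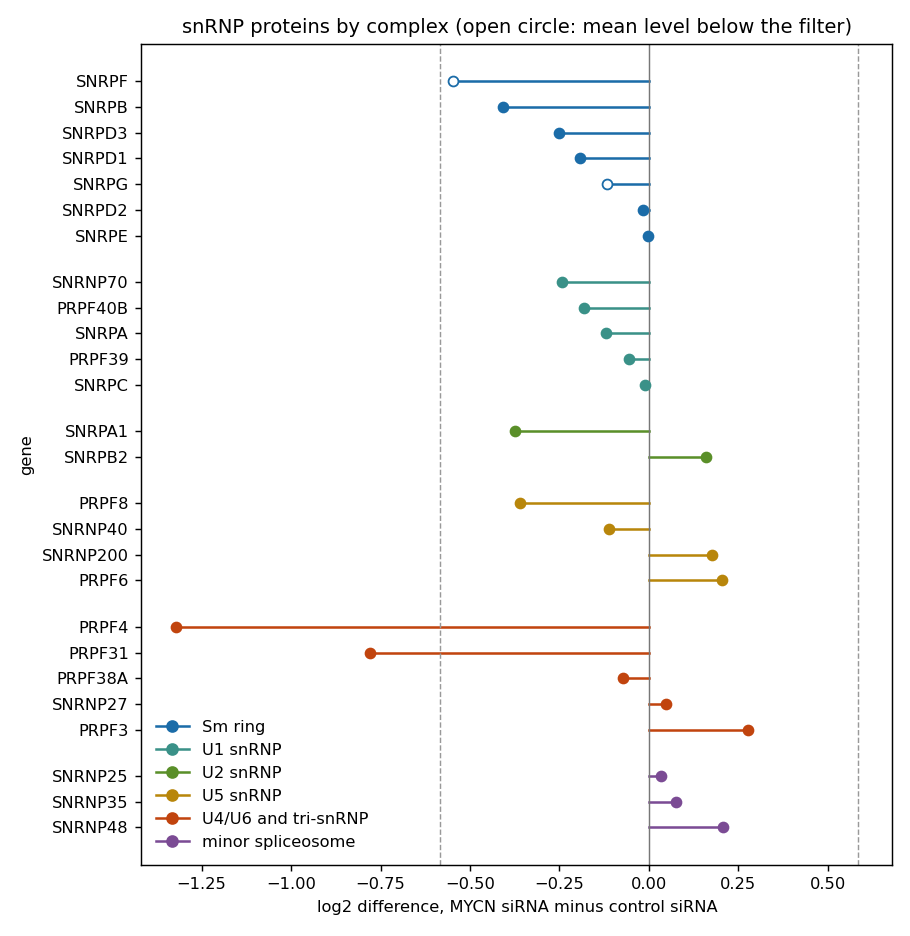
Log2 difference (MYCN siRNA minus control siRNA) of the snRNP proteins and the PRPF proteins of these particles, grouped and coloured by particle. PRPF18 and PRPF19 are not shown. Open circles are genes below the filter and dashed lines mark 1.5-fold. PRPF4 at −1.32 and PRPF31 at −0.78 stand beyond the line, and PRPF3 of the same group lies at 0.28.

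SR proteins had small differences of both signs. The lowest were SRSF7 at −0.22, SRSF1, an SR protein with oncogenic activity, at −0.21, SRSF2 at −0.20, SRSF6 at −0.18 and SRSF8, a retrogene copy of SRSF2, at −0.10. None of these reached the probe-set SD. The highest were SRSF12, which went from a low 4.89 to 5.34 (0.44), and SRSF4, which went from 7.84 to 8.24 (0.40). SRSF5 was at 0.18, SRSF3 at 0.053 and SRSF11 at −0.050. SRSF4 and SRSF6, close paralogs, lay on opposite sides of 0.

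Of the 19 measured hnRNP proteins, 14 lay within the probe-set SD of 0. The 2 called higher (10.5%) were close to the share of all genes, 8.91%, and none was called lower, against 5.56% of all genes. HNRNPA1L2, an intronless copy of HNRNPA1, went from 5.19 to 6.03 (0.84, 1.79-fold higher). HNRNPA1 itself, which represses exons, went from 7.77 to 7.31 (−0.45). The 2 probe sets of the pseudogene HNRNPA1P10 went from 7.63 to 7.36 (−0.28) and from 11.3 to 11.1 (−0.22). The second of them was thus far brighter than the probe set named HNRNPA1. These copies are nearly identical in sequence, so how signal is divided among them is uncertain. HNRNPLL, a regulator of alternative splicing known from activated T cells, went from 6.62 to 7.29 (0.67, 1.59-fold higher), while its paralog HNRNPL was at −0.056, with 11.2 and 11.1. Both members of the HNRNPU-like pair were higher. HNRNPUL2 went from 7.95 to 8.52 (0.57), just short of 1.5-fold and past it with median centring (0.62), and HNRNPUL1 from 11.1 to 11.4 (0.31). HNRNPU, their paralog, was at −0.041. The lower end held HNRNPDL at −0.27, HNRNPAB at −0.20, and HNRNPC and HNRNPR at −0.15 each. HNRNPA2B1, HNRNPA0 and HNRNPF were at 0.12, 0.13 and 0.077, and HNRNPK, HNRNPM, HNRNPH1, HNRNPH3 and HNRNPCL2 were between −0.087 and −0.030. HNRNPA3 and HNRNPCL1 were dim.

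RBM proteins went both ways, 14 lower and 16 higher. RBM23, a splicing coactivator, went from 9.19 to 8.61 (−0.586), just past 1.5-fold, a call that was lost after quantile normalization (−0.575), with median centring (−0.536) and with an offset of 16 (−0.567). Its paralog RBM39 was at 0.13. RBM12 (−0.574, 9.92 to 9.34) and RBM18 (−0.569, 8.28 to 7.71) lay just inside the threshold. RBM12, RBM18, RBM19 and RBM28 were singled out after their values were seen. RBM19 and RBM28 are nucleolar proteins of ribosome assembly that carry the RBM symbol, at −0.50 and −0.43, while RBM34, also related to a yeast ribosome assembly factor, was at −0.0050. These genes aside, no measured RBM gene was below −0.18.

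The highest RBM genes were RBM42, which was brighter with MYCN siRNA, at 8.92 (0.52), and RBM7, which went from 6.21 to 6.71 (0.50). RBM7 belongs to the complex that hands nuclear RNA to the exosome. RBM8A, a core protein of the exon junction complex, was at 0.37 and RBM4B at 0.30. RBM5 and RBM6, neighbouring genes on chromosome 3 whose products regulate splice site choice, were at 0.18 and 0.20, and their relative RBM10 was at −0.18. RBM22 and RBM17, both spliceosome proteins, were at 0.093 and 0.071, and RBM25 was at 0.039. The m6A writer subunits RBM15 and RBM15B were at −0.055 and −0.094. RBM20, which governs splicing in heart muscle, was at −0.030. RBM12B had 2 probe sets, at 0.027 and 0.19. The other measured RBM genes, RBM14, RBM26, RBM27, RBM33, RBM38, RBM41, RBM43, RBM45 and RBM48, lay between −0.11 (RBM27) and 0.20 (RBM33). The 6 dim RBM genes were RBM4, RBM11, RBM24, RBM44, RBM46 and RBM47, with all their levels between 2.21 and 4.27.

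Other genes of the pathway were taken from 8 lists of 122 symbols, of which 86 were found and 84 measured. Over all 84, 43 were lower and 41 higher, with a median of −0.012. Of these, 3 were called lower (3.57%, against 5.56% of all genes) and 1 was called higher (1.19%, against 8.91%). The lowest median, −0.20, was that of snRNP assembly and import, whose proteins load Sm rings onto the RNA and bring the particles into the nucleus. Of its 14 measured genes 10 were lower, also under the other 3 scalings, and 3 (21.4%) were called lower against the background of 5.56%. Each of these calls rests on 1 probe set. With so few genes the count does not set this list, the lowest of 8, apart from all genes. GEMIN5, the subunit of the SMN complex that recognises snRNA, went from 9.91 to 9.01 (−0.89, 1.86-fold lower). WDR77, the partner of the methyltransferase PRMT5, went from 9.72 to 8.97 (−0.75, 1.68-fold lower). GEMIN4 went from 8.39 to 7.71 (−0.69, 1.61-fold lower). PRMT5, which methylates Sm proteins, was at −0.42 and TGS1, which further methylates the cap of snRNAs, at −0.40. SNUPN, the import adaptor, was the highest at 0.41.

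Factors of the catalytic steps outside the families mostly differed in sign from this group. Of 19 such genes of the PRPF19 complex and the catalytic steps, 16 were higher as deposited and with median centring. After loess or quantile normalization 13 were higher. Of all measured genes 47.0% were lower as deposited. In the values as deposited the 16 were all within the probe-set SD (median of the list 0.071). CWC15 was at 0.26, CWC27 at 0.21 and CDC5L at 0.19. The 3 lower genes as deposited were the helicase DHX8 at −0.57 and the cyclophilins PPIL1 at −0.27 and PPIE at −0.19. The list leaves out members of the families, among them PRPF19 at −0.46, PRPF8 at −0.36, PRPF18 at 0.34 and RBM22 at 0.093. Of 7 SR protein kinases, 6 were higher (5 after quantile normalization; median 0.21), with CLK1 at 0.26, DYRK1A at 0.23 and SRPK2 at 0.22. SRPK1 was at −0.38.

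U2AF and branch point partners had a median of −0.15 over 9 genes, from PHF5A, a small SF3b subunit, at −0.41, DHX15 at −0.33 and U2AF2 at −0.22 to PUF60 at 0.26. The U5 and tri-snRNP partners had a median of −0.12 over 8, with SART3 at −0.17 after USP39 and EFTUD2, and CD2BP2 highest at 0.21. The 10 exon junction and SR-related genes had a median of −0.0021, with CASC3 at −0.42, EIF4A3 at −0.17, TRA2B at −0.14 and SON at 0.30. The 3 minor spliceosome partners were lower, ZCRB1 at −0.18, PDCD7 at −0.14 and CENATAC at −0.095. Among 14 other regulators of alternative splicing (median −0.052), NOVA2, a neuronal splicing regulator, went from 6.81 to 7.52 (0.71, 1.63-fold higher). ESRP2, at 5.10 and 4.78, was the lowest at −0.32. PTBP3 was at −0.31 and PTBP1, which represses neuronal exons, at −0.28. Its neuronal paralog PTBP2 was at 0.21.

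**Figure D4:**
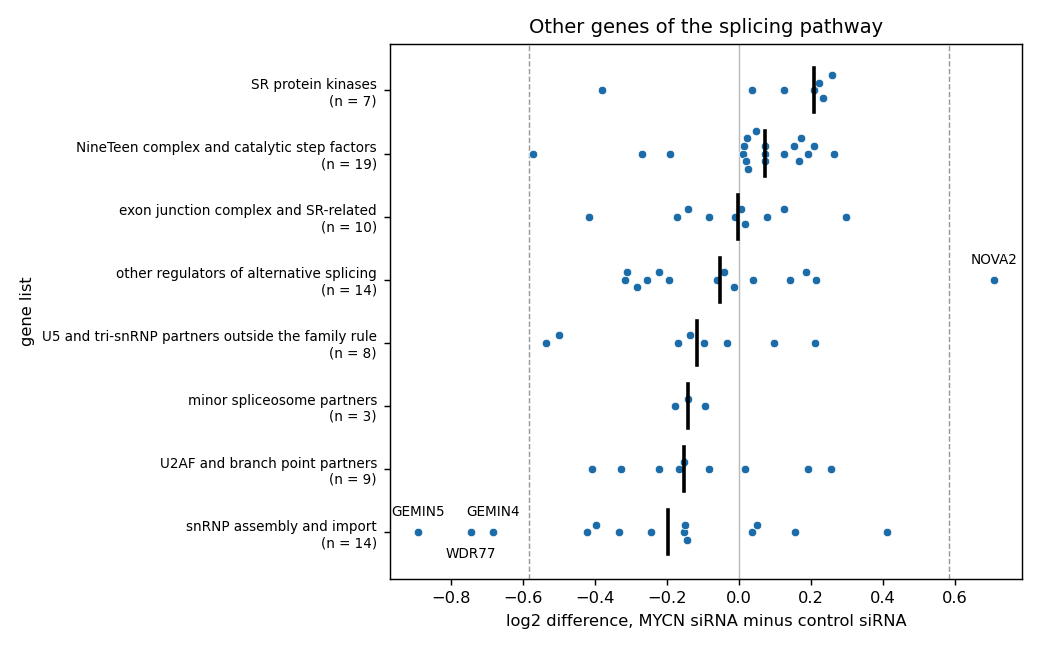
Log2 difference (MYCN siRNA minus control siRNA, horizontal) of the 84 measured genes of the 8 other splicing lists, 1 point a gene and a bar at each median. Dashed lines mark 1.5-fold; GEMIN5, WDR77, GEMIN4 and NOVA2 lie past them.

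The positions of the genes gave a further comparison, chosen after the values were seen. RefSeq promoter windows (GRCh38.p14, 250 bases before the start site to 50 after) matched 87 of the 97 members. Only the first window listed for a gene was kept, so any other start site of a gene was not searched. The distances between starts and the motif shares below depend on that choice. In 27 of these a gene on the opposite strand started within 1000 bases, and in 9 pairs both genes were measured and the partner was protein coding. Both genes lay on the same side of 0 in 5 of the 9 pairs. The 3 windows printed here hold both start sites of the closest pairs, each with a lower splicing gene. Capitals mark the stretch from the start of the partner to the start of the splicing gene.
PRPF31 with TFPT, chr19:54115504-54115803, plus strand: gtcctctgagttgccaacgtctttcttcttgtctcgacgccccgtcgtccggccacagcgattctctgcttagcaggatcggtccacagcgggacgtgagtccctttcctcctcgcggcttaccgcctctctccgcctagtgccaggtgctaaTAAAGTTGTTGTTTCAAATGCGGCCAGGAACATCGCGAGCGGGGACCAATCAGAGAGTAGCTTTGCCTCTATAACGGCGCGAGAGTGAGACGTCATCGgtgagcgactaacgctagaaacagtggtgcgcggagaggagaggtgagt
PRPF4 with CDC26, chr9:113275408-113275707, plus strand: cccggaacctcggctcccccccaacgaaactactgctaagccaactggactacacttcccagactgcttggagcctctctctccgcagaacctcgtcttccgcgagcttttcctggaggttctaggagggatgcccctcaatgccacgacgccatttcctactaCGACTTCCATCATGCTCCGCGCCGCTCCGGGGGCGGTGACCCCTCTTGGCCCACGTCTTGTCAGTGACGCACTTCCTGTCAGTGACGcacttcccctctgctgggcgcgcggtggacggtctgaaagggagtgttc
RBM18 with MRRF, chr9:122264791-122265090, minus strand: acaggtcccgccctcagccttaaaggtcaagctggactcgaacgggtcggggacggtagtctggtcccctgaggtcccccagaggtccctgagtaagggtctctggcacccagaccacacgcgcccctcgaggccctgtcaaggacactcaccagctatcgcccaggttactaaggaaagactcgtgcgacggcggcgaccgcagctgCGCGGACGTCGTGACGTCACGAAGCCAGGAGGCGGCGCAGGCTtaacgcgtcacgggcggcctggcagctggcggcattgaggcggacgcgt

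The starts of PRPF31 and TFPT lie 97 bases apart, and the genes went opposite ways. PRPF31 was at −0.78, while TFPT, a subunit of the INO80 chromatin remodeller, went from 6.76 to 7.82 (1.06). PRPF4 and CDC26, a subunit of the anaphase-promoting complex, start 86 bases apart, and CDC26 was at −0.14 against −1.32 for PRPF4. RBM18 and MRRF, the mitochondrial ribosome recycling factor, start 42 bases apart and were lower together, at −0.57 and −0.45. HNRNPDL and ENOPH1, an enzyme of methionine salvage, were lower together (−0.27 and −0.40), and HNRNPUL2 and TTC9C were both higher (0.57 and 0.21). In the pair of SNRPD2 and QPCTL, both lay below 0, but QPCTL, a glutaminyl cyclase of the Golgi, was at −0.95 and SNRPD2 at −0.017. SNRPA was at −0.12 and ACTMAP, an actin-processing protease, at 0.96. HNRNPA2B1 was at 0.12 and CBX3, a heterochromatin protein, at −0.35. SNRPD3 was at −0.25 and GUCD1 at 0.029.

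**Figure D5:**
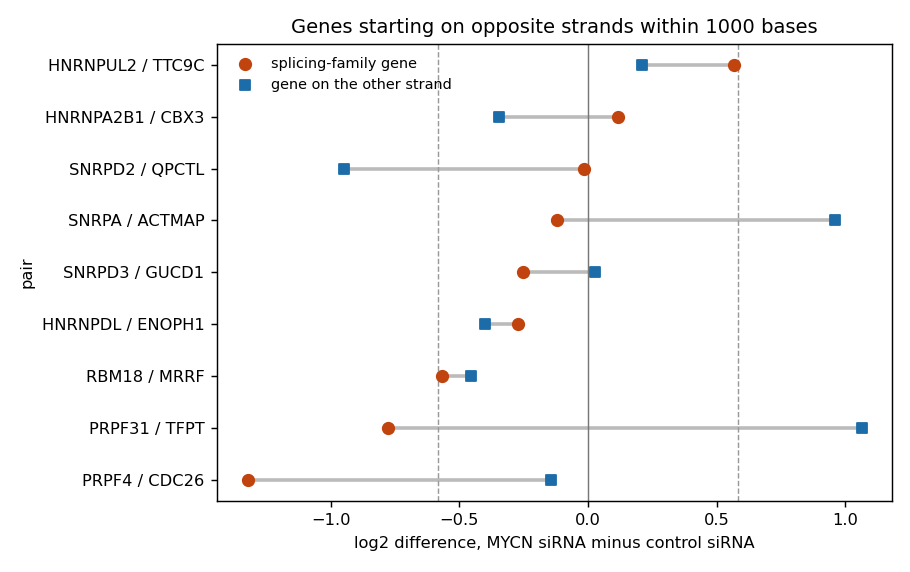
Log2 difference (MYCN siRNA minus control siRNA) of the splicing-family gene (circle) and of the gene starting on the opposite strand within 1000 bases (square), for the 9 pairs with both measured. Dashed lines mark 1.5-fold. PRPF31 and TFPT lie on opposite sides, at −0.78 and 1.06, while RBM18 and MRRF lie close together.

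MYC family proteins bind the E-box CACGTG, which reads the same on both strands. The letters stood in 9 of the 87 member windows (10.3%, exact 95% binomial interval 4.84 to 18.7), in 10.1% of 7524 windows of measured protein-coding genes and in 7.43% of all 27305 windows of the table. By class they stood in 5 of 20 hnRNP windows, 3 of 32 RBM windows, 1 of 18 core snRNP windows, and in none of 8 PRPF and 9 SR windows. None of the 5 called members had the letters in its window. All 9 matches are shown with 12 bases on each side, from GRCh38.p14 and written in the direction of the gene, because they place the letters beside the differences. Capitals mark CACGTG.
HNRNPA3, chr2:177212711-177212740, plus strand: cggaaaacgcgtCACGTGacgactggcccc
HNRNPDL, chr4:82430364-82430393, minus strand: agaggcccggggCACGTGcagaaaggagcc
HNRNPH3, chr10:68331631-68331660, plus strand: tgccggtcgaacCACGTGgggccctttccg
HNRNPM, chr19:8444921-8444950, plus strand: gttgcgtcgggtCACGTGggcgcgcaggcg
HNRNPUL1, chr19:41262568-41262597, plus strand: aacctctgggccCACGTGagtgtctgtccc
RBM15, chr1:110339184-110339213, plus strand: aacactttgggtCACGTGaccgcagagtgc
RBM15B, chr3:51391193-51391222, plus strand: ccgccgcagagtCACGTGgcaggacggcgc
RBM19, chr12:113966324-113966353, minus strand: caaggtctcagcCACGTGactgtgttccgg
SNRNP48, chr6:7590153-7590182, plus strand: ggctgttcaagtCACGTGgcgactgtggcc

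Counted from the start site, the letters begin at position −181 in RBM15, at −16 in RBM19 and at 24 in HNRNPUL1. Of the 8 measured genes in this set, 6 were lower, from RBM19 at −0.50 and HNRNPDL at −0.27 to HNRNPH3 at −0.030, and HNRNPUL1 and SNRNP48 were higher at 0.31 and 0.21. Their median was −0.046, against −0.030 for the 68 measured members with a window that lacked the letters. Of those 68, 39 were lower. Over all measured genes the medians were −0.045 with the letters (757 genes) and 0.035 without (6767 genes). Of these, 421 (55.6%) and 3085 (45.6%) were lower. A match describes the window only.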

How the data were processed

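RNA from 2 cultures was measured on 1 array each. The authors deposited log2 levels per probe set. The submitters' processing notes name RMA. Software, version and settings are not given in these sources. RMA usually makes the arrays' distributions alike, and a change in total RNA per cell would then not show. Here the deposited distributions were not identical. The array medians were 4.60 in the control and 4.55 with MYCN siRNA, and quantile normalization still moved values (HNRNPLL from 0.67 to 0.60). Of 46255 rows, 15835 had 1 gene symbol in the platform annotation, none several, and 30420 are unnamed here. All 14812 genes matched RefSeq gene identifiers (GRCh38.p14), used for gene type, start sites and promoter windows. Levels of probe sets of 1 gene were averaged. Medians, counts and differences were computed with Python 3.11.15, pandas 2.3.3, numpy 2.4.6 and statsmodels 0.14.6. The scripts were tested on simulated data. With 1 array per group no test was made, and "called" means past 1.5-fold. Alternatives were median centring, quantile normalization, loess (span 0.3), the brightest probe set, other filters (none, the 70th percentile, the median in either array), an offset of 16 and a threshold of 2-fold. Members, classes and lists were chosen with earlier results of these data known. The naming rule took all called members, all members of the snRNP particles, the extremes of each class and list, and next to them at most 4 (class) or 2 (list) genes on the side of the median. Members outside it are given to account for the whole family. They, the other list genes and the neighbouring genes were chosen after their values were seen.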

Additional observations from a re-analysis of the deposited data

How the results depend on the processing

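No paired analysis was possible because each group has 1 array, and no array could be left out. The 11 single genes with a difference of 0.5 or more were picked for that size on these same arrays. The alternatives only rescale or filter the same values, so a change of sign was hardly possible, and none occurred. PRPF4 ranged from −1.32 to −1.27, PRPF31 from −0.80 to −0.73, HNRNPLL from 0.59 to 0.72 and HNRNPA1L2 from 0.63 to 0.89. The median over all members was 0.020 with median centring, on the other side of 0. The count of members called lower was 3, and between 2 and 4 with the other normalizations and the offset of 16. RBM23 (−0.54 to −0.59) was not called after quantile normalization, median centring or the offset, and RBM18 (−0.52 to −0.60) was called after quantile normalization and loess. The count called higher was 2. It was 3 with median centring, which added HNRNPUL2 (0.62), and 3 with no filter, which added the dim RBM4. It was 1 with the 70th percentile filter, under which HNRNPA1L2 was not measured. At 2-fold the counts were 1 lower and 0 higher. Counting CACGCG or CATGTG or CACGAG (both strands) along with CACGTG put a match in 37.9% of member windows and 36.9% of windows of measured genes. Restricting pairs to starts within 300 bases, an alternative chosen after seeing the data, left 4 pairs, 2 of them with the same sign. The cause of these shifts was not tested.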
